A study of Mus musculus with 10 samples.

Results

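Chromosome 3 of the mouse carries 934 of the 20206 genes for which a normalized value was deposited in 10 embryonic stem cell (ESC) lines, and 303 of them had a mean over the 10 lines of at least 500. These 303 genes, called members here, were selected on that mean and on position, and chromosome 3 was chosen because its values in NPD line 8 had already been seen to be high. The values of NPD line 8 on this chromosome are therefore given as a description, without a test. Members were 293 protein-coding genes and 10 pseudogenes.

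ESC lines are cultures of the pluripotent cells of the blastocyst, the embryo just before implantation. C57BL/6 females aged 7 to 9 weeks, mated with males of the same strain, received either a low protein diet (LPD, 9% casein) or a normal protein diet (NPD, 18% casein) until embryonic day 3.5, and lines were derived from their blastocysts on feeder cells. The 5 LPD lines (1, 4, 6, 20 and 40) and the 5 NPD lines (8, 15, 21, 36 and 51) were labelled male and wild-type, and RNA was taken from undifferentiated cells. By the study's methods the lines came from different mothers and were grown without fibroblasts before RNA extraction. They had been chosen as male, by amplification of Y-linked Sry and Zfy, and as having a normal karyotype by Giemsa staining. The study counted a line as euploid when most of its metaphase spreads held the normal chromosome number. Each line is 1 culture and 1 library, and chromosome counts of the cultures sequenced were not analysed here.

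As background, the amount of mRNA made from a gene often scales with the number of its copies, so a gained chromosome tends to raise most of the genes it carries. Some genes escape this, because feedback on transcription, RNA decay or a partner that limits their level holds them near their usual amount. Cultured ESC lines are known to acquire such gains, and whole-chromosome changes are a usual check of their quality.

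All lines carried ESC markers. The values of 10 such genes, among them Pou5f1, Nanog and Zfp42, summed to between 95031 and 132629, the lowest sum being that of NPD line 8, where 3 of the 10 were above the median of the lines, and Pou5f1, a core regulator of pluripotency, lay between 18250 and 30420. The 10 fibroblast genes that would mark feeder cells summed to 2772 in NPD line 8, between the 879 of NPD line 21 and the 7236 of NPD line 15. Col1a1 was the most abundant of them in NPD line 8, at 1016, against a median of 299.8 over the 10 lines, and Col1a2 stood at 754 against 96.1. Above the median in NPD line 8 were 6 of the 10, while Lum and Dcn were listed at 0 there, as they were in several other lines. Pdgfra is in this list and in that of primitive endoderm. The 6 trophoblast genes had their highest sum, 4341, in NPD line 8, with 4261.5 in NPD line 15 and a lowest sum of 1859 in LPD line 20. Tfap2c, which ESCs also express, was the most abundant of them in NPD line 8, at 3579. Of the 6, 6 were above the median of the lines in NPD line 8, among them Hand1, at 278 against at most 133 elsewhere. Krt7 stood at 223, Gata3 at 218 and Cdx2 at 38.3, and for each of these another line was higher. Krt7 reached 638 and Gata3 265 in LPD line 6, and Cdx2 97.9 in LPD line 20. The 8 primitive endoderm genes summed to 1552 in NPD line 8 and to between 502 and 7566 over the 10 lines, and in NPD line 8 0 of the 8 were above the median. The 6 mesoderm and neural genes summed to 1227 and to between 866 and 1428. The part of these other cell types in the chromosome 3 values was not tested.

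A pair of lines labelled male stood apart in their Y-linked genes. Eif2s3y, a Y-linked gene, had a value of 7.72 in NPD line 15 and 140.4 in LPD line 4, against a median of 1560 over the 10 lines, and 1409 in NPD line 8. X-linked genes, 178 with a mean of 500 or more, were 0.47 (log2) higher in NPD line 15 than in the median line, again as a median over genes. In LPD line 4 their median was -0.014. Without NPD line 15 the chromosome 3 median of NPD line 8, which was 0.17 over 10 lines, was 0.16, and without LPD line 4 it was 0.16. Depth differed as well. Dividing the summed value of each line by the value of a single read gave an equivalent in reads. It was 21267370 in NPD line 8 and between 20332565 and 23175308 in the other NPD lines. In LPD lines 1 and 20 it was 21829137 and 24236737, and in LPD lines 4, 6 and 40 5855668, 12318586 and 11237399. A value of 500 stood for 640.4 reads in NPD line 8 and for 174 in LPD line 4, numbers for which counting error alone has an SD of 0.057 and 0.11 on the log2 scale.

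Members were higher in NPD line 8 than in the other lines. For each gene the deviation of a line is its log2(value + 1) minus the median of the 10 lines. The median deviation over the 303 members was 0.17 in NPD line 8, a 1.12-fold value, with quartiles of 0.033 and 0.31. In the other 9 lines it ran from -0.054 in LPD line 1 to 0.071 in LPD line 20. The latter was raised by 0.064 on the other autosomes too, whereas their median in NPD line 8 was -0.019. Members made up 4.36% of the total value of NPD line 8 and 3.71% to 3.90% of that of the others. A deviation above 0 in NPD line 8 was found for 251 members.

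No other autosome stood as far from the rest of its line. The medians of the other 18 autosomes in NPD line 8 lay between -0.048 and 0.0042. Set against the rest of the autosomes of the same line, chromosome 3 differed by 0.19 in NPD line 8, and the largest difference among the other 189 pairs of autosome and line was 0.060, for chromosome 18 in LPD line 20.

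**Figure D1:**
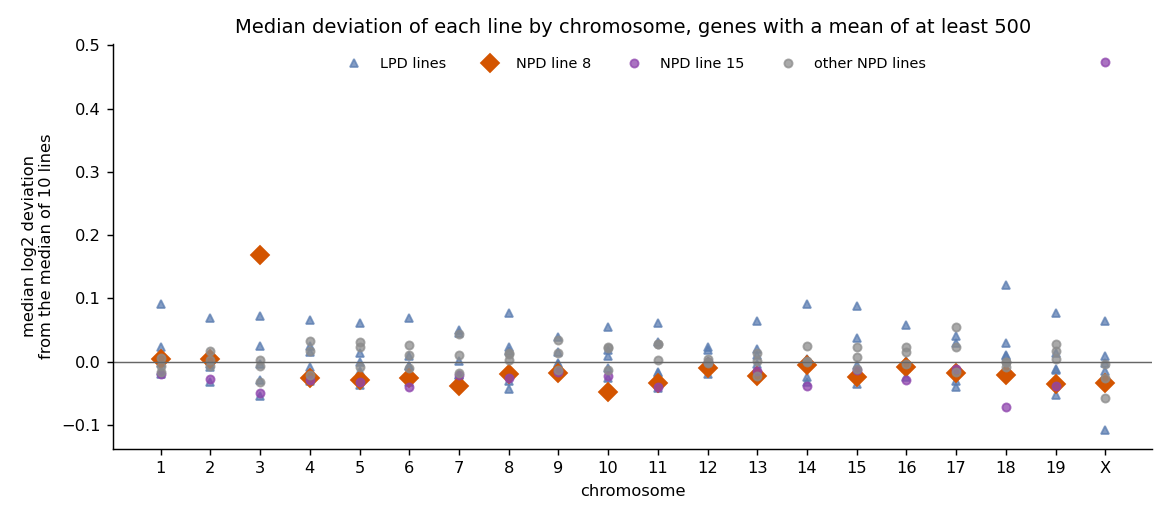
Each point is the log2 deviation of 1 line (vertical axis), as the median over all genes of a chromosome (horizontal axis) whose mean was 500 or more; orange diamonds are NPD line 8 and purple circles NPD line 15. NPD line 8 stands at 0.17 on chromosome 3, and NPD line 15 at 0.47 on the X chromosome.

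A gain of 1 copy in every cell of a diploid line would by arithmetic raise a gene 1.5-fold, or by 0.58 on the log2 scale, called the step here. The member median in NPD line 8 was 28.9% of that step. It was taken from the median of all lines, which includes NPD line 8 itself. Against the median of the other 9 lines the member median was larger, at 0.194. With each line centred on the other autosomes it was 0.188. Copy number was not measured, and whether any copy was added was not tested. In a bulk culture, more copies in all cells and more copies in some of the cells could not be told apart either. Members differed widely around their median: their deviations in NPD line 8 had an SD of 0.21, against 0.22 for genes of the other autosomes in the same line, and an interquartile range of 0.28 against 0.22. The SD among the other 9 lines had a median of 0.18 over members and 0.18 over those genes.

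Members were put into 4 classes by their deviation in NPD line 8. At or below the median of the 10 lines were 52 members (17.2%), where 56.7% of the 5707 genes with such means on the other autosomes were. A deviation at or below 0 in 1 library does not show that a gene escapes dosage, since genes on the other autosomes are spread about as widely. Above the median but under 0.29, which is 0.5 times the step, lay 162 members (53.5%). From there to 0.88 lay 88 members (29.0%), and 1 member, Adgrl2, lay higher. Together 89 members reached 0.29, against 5.98% of genes on the other autosomes. Both are measured from the median that includes NPD line 8. NPD line 8 held the highest of the 10 values in 101 members (33.3%), against 6.29% of genes on the other autosomes, and the lowest in 5, against 11.8%. Since chromosome and line were chosen on these values, the shares are set side by side only as a description.

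The high values were spread along the whole chromosome. Members lay from 8509360 to 158068487 on GRCm38, in 16 windows of 10 Mb. In the 14 windows with at least 5 members the median of NPD line 8 ran from 0.094, in the first 10 Mb, to 0.24, from 150 to 160 Mb, and in 11 of them it was the highest of the 10 lines. The exceptions were the windows from 0 to 10, 130 to 140 and 140 to 150 Mb, in which LPD lines 6, 40 and 20 were higher. LPD line 6 stood at 0.28 in the first of these. The window from 70 to 80 Mb held 4 members and had a median of -0.0040. Neighbouring members did not resemble each other: the Pearson correlation of the deviations of the 302 neighbouring pairs was -0.0150, and the Spearman correlation of deviation and position was 0.0469, both across genes of 1 library, which are not independent replicates. The longest run of members above the median held 38 genes, from Etv3 to Adar (chr3:87525407-89753446). The longest run at or below it held 3, from Sohlh2 to Commd2 (chr3:55182028-57651715).

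**Figure D2:**
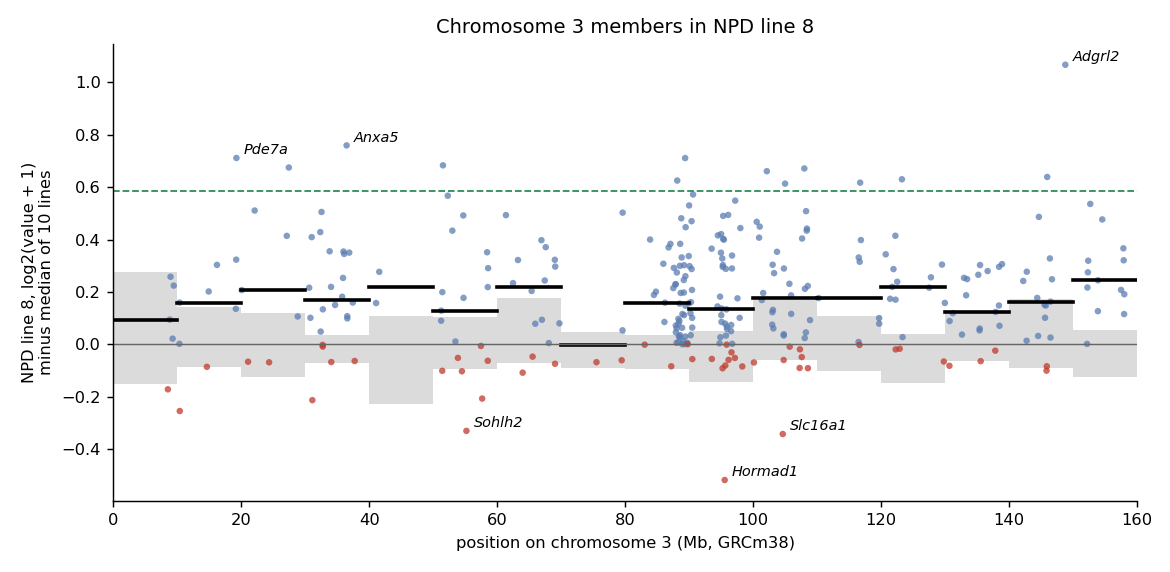
Points are the 303 members by their start on chromosome 3 (horizontal axis, Mb) and their log2 deviation in NPD line 8 from the median of the 10 lines (vertical axis), red at or below 0; black bars are NPD line 8 medians of 10 Mb windows, grey bands run from the lowest to the highest window median of the other 9 lines, and the dashed line is the step of 0.58. In windows with at least 5 members the black bars lie between 0.094 and 0.24.

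The library of NPD line 8 had a trend with transcript length on all autosomes, and the class of a member depends on it. Across genes of the other autosomes the Spearman correlation of its deviation with the length of the longest annotated transcript was 0.416, and across members it was 0.390; LPD line 40 had -0.473 and NPD line 21 -0.321 on the other autosomes. In NPD line 8, genes of the other autosomes with transcripts of up to 1000 bases had a median of -0.17 and those over 6500 bases 0.085. Members of the same classes had 0.028 (18 genes) and 0.30 (50 genes). In each of the 6 length classes members stood above genes of the other autosomes, by 0.17 to 0.25. Subtracting the median of genes of the same class on the other autosomes, a correction chosen after seeing the data, gave a member median of 0.20, which is 34.0% of the step, and left 38 members at or below 0, of which 27 were also at or below it uncorrected. On the other autosomes 2855 of 5707 genes were at or below 0 after the subtraction and 2605 (45.6%) both ways, the latter against 8.91% of members.

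**Figure D3:**
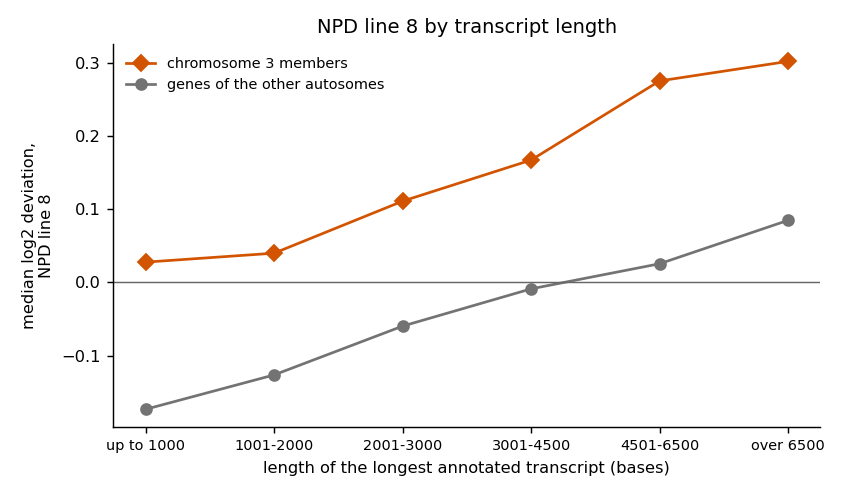
Median log2 deviation of NPD line 8 from the median of the 10 lines (vertical axis) in 6 classes of longest annotated transcript (horizontal axis, bases), for chromosome 3 members (orange) and genes of the other autosomes with a mean of at least 500 (grey). Both are higher for longer transcripts, and the orange points lie 0.17 to 0.25 above the grey.

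The deviation was smaller in members with high values. Its median was 0.20 for means from 500 to 1000, 0.16 to 2000, 0.15 to 5000 and 0.090 above. Genes of the other autosomes had medians ordered much alike, and the differences from them were 0.21, 0.18, 0.17 and 0.19. Below the minimum mean, 169 chromosome 3 genes with means from 100 to 500 had a median of 0.21. Just inside the minimum was Cttnbp2nl, with a mean of 505 and a deviation of 0.61. Just outside were 4933434E20Rik, with 496 and 0.15, and Lrrc34, with 494 and -0.056. The 10 pseudogenes had a median of -0.065, and 6 of them lay at or below 0; with quantile normalization their median was 0.015 and with same-length genes subtracted 0.11.

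A pair of germ line genes and a lactate carrier had the lowest deviations in NPD line 8. Hormad1 (ENSMUSG00000028109, chr3:95559677-95587671), a protein of the meiotic chromosome axis, had values of 690.3, 652, 323, 569 and 488 in LPD lines 1, 4, 6, 20 and 40 and 416, 635, 627, 637 and 526 in NPD lines 8, 15, 21, 36 and 51. Its deviation in NPD line 8 was -0.52, and LPD line 6 was lower still. Sohlh2 (ENSMUSG00000027794, chr3:55182028-55209957), a transcription factor of early germ cells, had values of 1545, 1290, 781, 1093 and 1281 in LPD lines 1, 4, 6, 20 and 40 and 941, 776, 1803, 1016 and 1584 in NPD lines 8, 15, 21, 36 and 51. It varied widely among the lines (SD 0.43 over the other 9 lines), which its deviation of -0.33 did not exceed. Slc16a1 (ENSMUSG00000032902, chr3:104638668-104658462), the monocarboxylate transporter that moves lactate, had values of 2929, 2487, 2260, 3119 and 3263 in LPD lines 1, 4, 6, 20 and 40 and 2095, 2451, 2972, 2405 and 2841 in NPD lines 8, 15, 21, 36 and 51. Here NPD line 8 was the lowest of the 10 lines, with a deviation of -0.34 against an SD of 0.19 among the others.

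The other members with the lowest deviations were Chmp4c, a subunit of the membrane-severing ESCRT-III complex (-0.26), Skil, a repressor of TGF-beta signalling (-0.21), Commd2 (-0.21), Stmn2, a regulator of microtubules (-0.17), Gmps, the last enzyme of GMP synthesis (-0.11), the pseudogene Gm5641 (-0.10) and Ndufc1, a subunit of respiratory complex I (-0.10). NPD line 8 was the lowest of the 10 lines for Commd2, Stmn2 and Gmps. The value of Gmps was 2029 in NPD line 8 against 2050 to 2556 in the other 9 lines. Gm5641 and Ndufc1 lay above 0, at 0.023 and 0.025, after same-length genes were subtracted, and the first 8 of the 10 did not. Of the 52 members at or below the median, 23 stayed there under each alternative run on the same members, the lowest being Hormad1 and the highest Tiparp (-0.047).

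At the other end, Adgrl2 (ENSMUSG00000028184, chr3:148815583-148990555), an adhesion G protein-coupled receptor of the latrophilin family, had values of 709, 838, 1299, 1426 and 793 in LPD lines 1, 4, 6, 20 and 40 and 1710, 854, 611, 622 and 780.1 in NPD lines 8, 15, 21, 36 and 51. NPD line 8 was the highest, with a deviation of 1.07, 2.16 times the median of the other 9 lines, which themselves differed with an SD of 0.43. Anxa5 (ENSMUSG00000027712, chr3:36448923-36475894), a calcium-dependent phospholipid-binding protein, had values of 634, 444, 899, 544 and 814 in LPD lines 1, 4, 6, 20 and 40 and 962, 592, 475, 539 and 465 in NPD lines 8, 15, 21, 36 and 51. Its deviation was 0.76, and NPD line 8 was again the highest. Next came Pde7a, a cyclic AMP phosphodiesterase (0.71), the transcription factor Zbtb7b (0.71), the lysine methyltransferase Setd7 (0.68), Fndc3b (0.68), the glutathione transferase Gstm1 (0.67), the planar polarity protein Vangl1 (0.66), Syde2 (0.64) and the COPII coat protein Sec24d (0.63). Among these 10, another line was higher than NPD line 8 for Zbtb7b, Fndc3b and Gstm1.

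By role, members of most gene lists stood above 0 as a group; all members together had a median of 0.17, 33.3% highest in NPD line 8 and 17.2% at or below 0, and no list is set apart from that by a test. The lists hold 166 of the 303 members and are not complete for any role, so their counts are those of the genes listed. Of the 15 lists, 14 had a median above 0. In protein synthesis, the 4 cytosolic ribosomal proteins had a median of 0.097 in NPD line 8, with 0 of 4 highest there and 0 at or below 0. They were alike, from 0.085 for Rps3a1 to 0.12 for Rps27, and Rpl34 had 12734 in NPD line 8 against 10957 to 14439 in the other 9 lines. Their transcripts are short, and with same-length genes subtracted their median was 0.25. The 10 translation factors and tRNA enzymes had a median of 0.22 in NPD line 8, with 4 of 10 highest there and 0 at or below 0. Fxr1, an RNA-binding regulator of translation, had 6137 in NPD line 8 against 5043 to 5656 in the other 9 lines, a deviation of 0.22 where the other 9 lines differed with an SD of only 0.053. The seryl-tRNA synthetase Sars stood at 0.44 and Naa15, a subunit of an N-terminal acetyltransferase, at 0.20.

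Mitochondrial members were counted in a pair of lists. The 8 members of the mitochondrial ribosome and import list had a median of 0.036 in NPD line 8, with 0 of 8 highest there and 3 at or below 0. With the same total for each line this median was 0.098, and with same-length genes subtracted 0.17. The ribosomal proteins Mrpl9, Mrpl24 and Dap3 stood at 0.14, 0.071 and 2.4e-05 and the outer membrane protein Mtx1 at 0.11; Dap3 was at -0.025 with same-length genes subtracted. The 9 members of the respiration and fat oxidation list, which also holds the fusion protein Mfn1 and the amino acid breakdown enzymes Dbt and Mccc1, had a median of 0.24 in NPD line 8, with 4 of 9 highest there and 0 at or below 0, and 0.27 with same-length genes subtracted. The list does not hold the complex I subunit Ndufc1, given above at -0.10. Of those listed, the fatty acid dehydrogenase Acadm had 1789 in NPD line 8 against 1256 to 1655 in the other 9 lines, the ATP synthase subunit Atp5f1 a deviation of 0.19, the complex I subunit Ndufb5 0.13 and the fatty acid oxidation enzyme Hadh 0.12. The difference between the lists was not tested.

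In RNA processing, the 27 splicing and processing members had a median of 0.092 in NPD line 8, with 6 of 27 highest there and 6 at or below 0, and none reached 0.29. The splicing factor subunit Sf3b4 (-0.060), the mRNA export factor Chtop (-0.057) and the exon junction protein Rbm8a (-0.031) lay below 0, and the splicing complex member Bcas2 at 0.060. With same-length genes subtracted Sf3b4 and Rbm8a were above 0, at 0.067 and 0.029. The 12 members of the proteasome and ubiquitin list, which also holds the selenoprotein Selenof and the chromatin protein Vps72, had a median of 0.12 in NPD line 8, with 4 of 12 highest there and 1 at or below 0. The ubiquitin ligase Trim59 (-0.075) and the ubiquitin-like Ufm1 (-0.052) are members outside the list, named here after their values were seen. In the list the proteasome subunits Psmb4 and Psmd4 had deviations of 0.027 and 0.11, the ubiquitin-conjugating enzyme Ube2d3 0.060 (-0.025 with same-length genes subtracted) and the shuttle factor Ubqln4 0.30.

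The 9 members of the cell cycle list had a median of 0.27 in NPD line 8, with 5 of 9 highest there and 0 at or below 0. Chmp4c, given above at -0.26, acts in cytokinesis and is not in the list. The condensin subunit Smc4 had 4373 in NPD line 8 against 3076 to 3703 in the other 9 lines, a deviation of 0.32. Ect2, which acts in cytokinesis, had 0.41, cyclin A2 (Ccna2) 0.099 and the histone chaperone Anp32e 0.059, and NPD line 8 was the highest line for all 4.

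Among regulators of transcription, Sox2 (ENSMUSG00000074637, chr3:34650405-34652461), which maintains pluripotency with Pou5f1, had values of 9110, 7990, 8291, 7481 and 9049 in LPD lines 1, 4, 6, 20 and 40 and 9734, 10969, 9458, 8226 and 8507 in NPD lines 8, 15, 21, 36 and 51. NPD line 15 alone was above NPD line 8, which had a deviation of 0.15 against an SD of 0.16 among the others. The 17 members of this list had a median of 0.22 in NPD line 8, with 8 of 17 highest there and 2 at or below 0, from Skil at -0.21 to Zbtb7b at 0.71. Arnt, a partner of the hypoxia factors, stood at 0.40, the ubiquitin ligase Trim33 at 0.27 and Fubp1, which binds DNA upstream of Myc, at 0.0012 (-0.084 with same-length genes subtracted). The 14 chromatin members had a median of 0.17 in NPD line 8, with 5 of 14 highest there and 2 at or below 0. The growth factor Hdgf had 13112 in NPD line 8 against 10198 to 11934 in the other 9 lines, whereas the histone variant H2afz (-0.025) and the BAF complex subunit Actl6a (-0.0025) lay just below 0 and the RNA helicase Mov10 stood at 0.038. Both H2afz and Actl6a were above 0 with the same total, with quantile normalization and with same-length genes subtracted, in the last at 0.10 and 0.057.

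Metabolic lists held members of both kinds. The 9 members in amino acid, redox and one-carbon metabolism had a median of 0.15 in NPD line 8, with 1 of 9 highest there and 2 at or below 0. Gclm, the regulatory subunit of glutathione synthesis, stood at 0.41, the formaldehyde-oxidizing Adh5 at 0.15, the thioredoxin inhibitor Txnip at 0.050 and the serine synthesis enzyme Phgdh at -0.085, or 0.042 with same-length genes subtracted. The 7 members of the lipid and sterol list had a median of 0.30 in NPD line 8, with 4 of 7 highest there and 1 at or below 0. The fatty acid elongase Elovl6 had 5515 in NPD line 8 against 3523 to 4631 in the other 9 lines, and the mevalonate pathway enzymes Pmvk and Fdps had deviations of 0.45 and 0.012; the phosphatase Acp6 lay at -0.052. The 7 transporters had a median of 0.20 in NPD line 8, with 3 of 7 highest there and 1 at or below 0. The flippase Atp11b stood at 0.18 and the zinc importer Slc39a1 at 0.034.

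In signalling, the 20 members had a median of 0.24 in NPD line 8, with 9 of 20 highest there and 2 at or below 0. The small GTPase Nras had 2977 in NPD line 8 against 1731 to 2814 in the other 9 lines, the atypical protein kinase C Prkci a deviation of 0.41 and the adaptor Shc1 0.26. Survival and stress was the list with a median below 0: its 6 members had a median of -0.058 in NPD line 8, with 1 of 6 highest there and 4 at or below 0. The anti-apoptotic Mcl1 stood at -0.081, the NF-kappaB adaptor Bcl10 at -0.084, Pdcd10 at -0.069, the poly-ADP-ribosyltransferase Tiparp at -0.047 and the phosphatase inhibitor Ensa at 0.079. The member with the highest deviation of the list, Sh3glb1 at 0.49, was chosen after its values were seen. The median of the list was -0.0079 with the same total for each line, and with same-length genes subtracted it was 0.017, with Pdcd10 at 0.058. The 9 members among S100, actin and adhesion proteins had a median of 0.30 in NPD line 8, with 2 of 9 highest there and 1 at or below 0. S100a11 stood at 0.37, tropomyosin 3 (Tpm3) at 0.30, the actin-capping Capza1 at 0.29 and calponin 3 (Cnn3) at 0.17. The pseudogene Gm7536, named for its high mean, stood at -0.069, and with same-length genes subtracted at 0.10.

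The members whose values over the 10 lines were most like the line medians of chromosome 3 were Dhx36, Zranb2, Selenot, Metap1 and Sec24d, with Pearson correlations of 0.934, 0.854, 0.854, 0.847 and 0.846. Each of them is also part of those medians, and in each NPD line 8 was the highest line. Dhx36, a helicase that unwinds G-quadruplexes, had 1993 in NPD line 8 against 1554 to 1835 in the other 9 lines. Zranb2, a splicing protein, had 2263 in NPD line 8 against 1706 to 2089 in the other 9 lines, Selenot, a selenoprotein of the endoplasmic reticulum, a deviation of 0.29, and Metap1, a methionine aminopeptidase, 0.30.

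The classes of members were also compared by the sequence before their starts. RefSeq (GRCm38.p6) sequences were found for 230 of the 303 members, and in 211 of these the RefSeq start lay within 1000 bases of the outermost annotated one. CG pairs (a C followed by a G, read on 1 strand, which is the same on both) were counted in the 250 bases before the start. Their number had a median of 18 in 33 members at or below 0, 18 in the next class and 17 in the 66 from 0.29 to 0.88. Adgrl2, the 1 member above 0.88, had 3, with a RefSeq start 35920 bases from the outermost annotated one. Over 27025 promoters of all genes the median was 6, but these were not selected on a mean as members were. A pair of members whose RefSeq start lay within 1000 bases are shown, 1 from each end of the deviations and both chosen after their values were seen. Slc16a1, lowest of the 10 lines in NPD line 8, had 37 CG pairs, a number that 2.12% of all promoters reach. Anxa5, highest of the 10 lines there, had 13, which 31.8% reach. Low deviations did not go with many CG pairs throughout, since Hormad1 had 19 and Sohlh2 14. The count is a description and was not tested. CG pairs are in capitals, Slc16a1 on the plus strand (chr3:104638414-104638663) and Anxa5 on the minus strand (chr3:36475888-36476137), each read 5′ to 3′.
Slc16a1: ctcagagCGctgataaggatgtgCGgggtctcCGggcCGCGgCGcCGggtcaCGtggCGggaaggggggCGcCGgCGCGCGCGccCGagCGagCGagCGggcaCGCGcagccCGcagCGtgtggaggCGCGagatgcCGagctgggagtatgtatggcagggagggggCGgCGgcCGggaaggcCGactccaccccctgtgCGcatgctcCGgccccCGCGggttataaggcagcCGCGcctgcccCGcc
Anxa5: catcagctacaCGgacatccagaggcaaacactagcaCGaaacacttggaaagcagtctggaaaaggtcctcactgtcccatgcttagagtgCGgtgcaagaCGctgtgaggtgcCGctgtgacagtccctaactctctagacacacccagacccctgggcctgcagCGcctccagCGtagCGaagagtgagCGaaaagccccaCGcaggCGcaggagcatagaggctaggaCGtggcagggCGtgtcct

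Whether members differed between LPD and NPD lines was asked next. Diet was not used to choose the members, but NPD line 8, whose values were, is 1 of the 5 NPD lines, so the comparison is given with and without it. The test was a limma fit over 14354 genes. No gene passed: the share of genes called at an adjusted p under 0.1 was 0.0%, with 721 genes at an unadjusted p under 0.05 (limma, Benjamini-Hochberg), and so no member passed either. This count depended on single lines: without LPD line 40 it was 40 genes, 1 of them a member, without LPD line 1, LPD line 20 or NPD line 8 it was 1 gene, and without any other single line it was 0. At an unadjusted p under 0.05, 7 of 303 members were higher in LPD and 5 lower, where 2.84% and 2.18% of all genes were; shares of the members are near these. Rescaling each line to the same total turned the balance, to 4 members higher and 11 lower and, over all genes, from 408 and 313 to 295 and 439. Leaving out NPD line 51 left 4 members higher, beside 366 of all 14354 genes. Leaving out NPD line 21 or 36 left 3 members lower, beside 274 and 227 of all genes. Without NPD line 15 and LPD line 4, 4 members were higher and 3 lower, beside 355 and 255 of all genes. The groups did not overlap in 4 members, against 1.02% of all genes.

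Single lines weighed on this comparison, among them NPD line 8. With all 10 lines the median log2 fold change of the members, LPD against NPD, was -0.014, and 139 members had a positive one, beside a median of 0.017 and 3218 positive of 5707 genes with such means on the other autosomes. With the same total for each line the member median was -0.048 and that of the other autosomes -0.017. The sign of the member median also turned without LPD line 1, to 0.0086 with 159 positive, and without LPD line 4, to 0.0030 with 155. Without NPD line 8 the median was 0.033, 183 were positive, and 15 members were higher and 1 lower in LPD at an unadjusted p under 0.05, where 2.68% and 1.94% of all genes were. At an adjusted p under 0.1 no member was called in that fit (limma, Benjamini-Hochberg).

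The members with the smallest p were Ccn1 and Bcl10. The study listed a Bcl10 transcript as higher in LPD at a false discovery rate under 0.1. It used sleuth on single transcripts, whereas the fit here was on genes. Ccn1 (ENSMUSG00000028195, chr3:145646976-145649981), a secreted matrix protein induced by YAP and growth factors, had values of 10567, 10390, 5290, 5812 and 1330 in LPD lines 1, 4, 6, 20 and 40 and 1705, 1238, 991, 1345 and 1482 in NPD lines 8, 15, 21, 36 and 51. LPD lines 1, 4, 6 and 20 were above every NPD line, while LPD line 40 lay within the NPD range, with a log2 fold change of 2.01 (SE 0.45) that did not pass (limma, Benjamini-Hochberg, adjusted p = 0.432; exact permutation test, two-sided, p = 0.0317). Without LPD line 40 it passed, with a log2 fold change of 2.52 and an adjusted p of 5.73e-04 (limma), and over the alternatives the adjusted p ran from there to 0.998. Bcl10 (ENSMUSG00000028191, chr3:145922804-145934356) had values of 833, 847, 981, 1134 and 795 in LPD lines 1, 4, 6, 20 and 40 and 708, 638, 697, 605 and 699 in NPD lines 8, 15, 21, 36 and 51. The lowest LPD line was above the highest NPD line, with means of 918 ± 139.8 in LPD and 669 ± 45.4 in NPD lines (SD, n = 5 each) and a log2 fold change of 0.45 (SE 0.11) that did not pass adjustment (limma, Benjamini-Hochberg, adjusted p = 0.451), at the smallest p that 5 against 5 lines allow (exact permutation test, two-sided, p = 0.00794).

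Phgdh had means of 2766 ± 109 in LPD and 2240 ± 351 in NPD lines (SD, n = 5 each) and a log2 fold change of 0.32 (SE 0.11) (limma, Benjamini-Hochberg, adjusted p = 0.839; exact permutation test, two-sided, p = 0.00794). Wwtr1, the transcriptional partner TAZ of the YAP pathway, had means of 930.4 ± 32.9 in LPD and 776 ± 97.7 in NPD lines (SD, n = 5 each) and a log2 fold change of 0.27 (SE 0.098) (limma, Benjamini-Hochberg, adjusted p = 0.860; exact permutation test, two-sided, p = 0.00794). In these 2 members, too, every LPD line was above every NPD line. That was so in 3 of 303 members and in 75 of all 14354 genes. Both were picked by their limma p on the same values, so their exact p is a description. Lowest in p among members lower in LPD were Pias3, a SUMO ligase, with a log2 fold change of -0.42, Acadm with -0.20, Mov10 with -0.18 and the DNA demethylase Tet2 with -0.19; their adjusted p in limma was 0.681, 0.953, 0.982 and 0.986. Acadm is the 1 member with all LPD lines below all NPD lines, and NPD line 8 had its highest value; without that line its log2 fold change was -0.16. For Sox2 the groups overlapped, with means of 8384 ± 698 in LPD and 9379 ± 1090 in NPD lines (SD, n = 5 each) (limma, Benjamini-Hochberg, adjusted p = 0.994; exact permutation test, two-sided, p = 0.127).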

How the data were processed

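The authors trimmed reads with cutadapt, filtered them on base quality and quantified GRCm38 transcripts with Salmon; the submitters' processing notes also name sleuth 0.30.0. In the deposited table each gene has 1 normalized signal per line, in the manner of an estimated count, and the table's name credits the normalization to DESeq2. The summing over transcripts and the choice of genes are not stated in the sources used here. As the values are normalized, no count model was run. Of 20206 genes, 19918 matched GENCODE M21 (GRCm38) by identifier, and Xist was not in the table. The members and gene lists were chosen with earlier results of these data known.

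The value of 1 read was estimated from low values of genes with 1 annotated transcript, of which at least 90.7% in each line were whole multiples of it within 0.15. Diets, 5 lines each, were compared on log2(value + 1) with limma 3.58.1 in R 4.3.3 (trend, no covariate), keeping 14354 genes whose mean reached 10, with Benjamini-Hochberg adjustment over all of these, and for single members by exact permutation over 252 assignments. The fit was tested on simulated data, with an outcome that is not reported here. The robust fit used statmod 1.5.0. Python 3.11.15, numpy 2.4.6, pandas 2.3.3 and matplotlib 3.10.9 served the rest.

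Members were named by rule: the 10 lowest and 10 highest deviations in NPD line 8, the 8 highest means, up to 4 per list by mean, the 4 smallest p in each diet direction, Sox2 and Bcl10, the 5 most like the line medians and 2 genes at each side of the minimum mean. Of the members so chosen, 3 are not reported. Alternatives were other pseudocounts, the same total per line, quantile normalization, centring on the other autosomes, other minimum means and reference levels, identical genes counted once, protein-coding genes alone, no trend, robust limma, array weights and each line left out; the subtraction of same-length genes and the joint leaving out of lines were added after seeing the data.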

Additional observations from a re-analysis of the deposited data

Results flagged for a closer look

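Within each diet group of 5 lines, the gap between the outermost line and its nearest neighbour was divided by the range of the group, and 16 of 186 groups were above the limit of 0.71 (before rounding), which chance alone passes in about 1 in 20 groups. NPD line 8 was apart from the other NPD lines in its chromosome 3 member share, with a ratio of 0.859, and in its member median, with 0.763. Of single members it stood apart as highest in Trim33 (0.776) and Ubqln4 (0.742). These 4 ratios use the values by which the line and the chromosome were chosen, so they are a description with no test, and the chance rate does not apply to them. The 16 groups include these 4, so that count is not compared with the chance rate either. The Y-linked genes Eif2s3y, Ddx3y, Uty and Kdm5d were low in NPD line 15 (0.966, 0.959, 0.936 and 0.909) and in LPD line 4 (0.945, 0.883, 0.722 and 0.865). NPD line 15 was the highest NPD line for Fubp1 (0.729) and the lowest for Anp32e (0.71). Among LPD lines, line 6 was apart in Txnip (0.789) as the lowest, and line 4 in Pdcd10 (0.727) as the lowest.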

How the results depend on the processing

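The chromosome 3 median in NPD line 8 was above 0 under every alternative run. It was 0.21 with each line rescaled to the same total, a shift from 0.17 larger than the SD of 0.039 among the medians of the other lines, and 0.16 to 0.18 with each other line left out in turn. The members highest in NPD line 8 numbered 101 to 121 and those at or below the median 60 to 77 with a line left out; leaving out a line makes NPD line 8 itself the median of some members. These counts were 135 and 41 with the same total and 122 and 48 with quantile normalization. With a minimum mean of 100 or 1000 these counts were 154 and 90, or 61 and 31, as more or fewer genes entered. For the 87 members named, signs under centring on the other autosomes and under other reference levels were not counted. Under the remaining alternatives 13 took the opposite sign, 12 of them with same-length genes subtracted, and 6 reached 0 at most. The negative deviation of the pseudogene Gm5641 was larger than the SD among the other lines in the values as deposited. It became 0.015 with quantile normalization and 0.023 with same-length genes subtracted. The cause was not tested. In the diet comparison, genes at an adjusted p under 0.1 (limma) numbered 0 to 40 with a line left out, the highest without LPD line 40, 1 with array weights and 1 without NPD lines 8 and 15 and LPD line 4, and genes at an unadjusted p under 0.05 numbered 549 to 903 with a line left out. Members at an adjusted p under 0.1 numbered 0 to 1, Ccn1 without LPD line 40, at a log2 fold change of 2.52. Members at an unadjusted p under 0.05 numbered 8 to 16 with a line left out, 4 to 15 of them higher and 1 to 7 lower in LPD. Leaving out NPD line 8 gave 15 higher and 1 lower, beside 384 and 279 of all 14354 genes. With the diets compared over all 10 lines, 4 members were higher and 11 lower with the same total, beside 295 and 439 of 14364 genes. With quantile normalization 6 were higher and 9 lower, beside 387 and 381 of 14361 genes. Without a trend they were 6 (4 and 2), beside 412 and 339 of 14354 genes. With array weights 11 were higher and 7 lower, beside 458 and 379 of 14354 genes. Without NPD line 15 and LPD line 4, chosen after seeing the data, members under that p numbered 7 (4 higher and 3 lower), beside 355 and 255 of 14354 genes. Without NPD line 8 as well, 15 were higher and 2 lower, beside 393 and 254 of 14354 genes. The cause of these shifts was not tested. No paired analysis was possible because the diet groups share no line number. Depth limits LPD line 4 most. NPD line 8 is 1 library, so its spread on repeat is unknown, and values relative to the rest of a library do not measure RNA per cell.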
